A study of Rattus norvegicus with 85 samples.

Results

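Editing of RNA from adenosine to inosine (A-to-I) was compared between the prefrontal cortex (PFC) and the amygdala (AMY) of newborn rats of the control line in the second offspring generation (F2). The 14 samples, out of 85 in the series, were those whose labels give control treatment, generation F2, postnatal day 0 (P0) and one of the 2 regions, 7 from PFC and 7 from AMY. All were Sprague-Dawley rats that had themselves received no treatment. They descended from females that were not stressed, whose adult sons were mated with naive females, so the line runs through the paternal germline. The PFC samples came from 5 males and 2 females and the AMY samples from 6 males and 1 female, by their labels. The study's methods speak of males only for these newborns, so values by sex rest on labels that differ from the methods. Each sample was a bilateral punch of frozen tissue with all its cell types. The editing level of such a sample is an average over cells, so a different mix of cells and a different level within cells cannot be told apart. Amplicon data carry no expression values, so the labelled region could not be checked against marker genes.

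ADAR enzymes convert adenosine to inosine in double-stranded RNA, and inosine is read as guanosine by the ribosome and by reverse transcriptase. In the brain, editing changes amino acids in glutamate, GABA and serotonin receptors and in ion channels, where it alters calcium permeability, desensitisation, G-protein coupling or inactivation. Many other sites lie in 3′ UTRs. The assay was mmPCR-seq, a deep sequencing of selected transcripts after amplification with pooled primer pairs. The level of a site is the share of its reads with G where the genome has A, given here in percent, and differences are PFC minus AMY in percentage points. Positions are those of the rat build rn4.

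The primer pairs show which stretches of transcript were read, and are given for 5 of the 20 pairs behind the sites that passed the test below. Each line gives the gene-specific part of a primer, without the common tail, 5′ to 3′, and all letters are in capitals because all of them match the target.
Gabra3 forward: TTCATCTCCAGGGCCTCT
Gabra3 reverse: CAGTGCCAGAAACTCTTTACC
Grik2 Q/R forward: TTTGGGCATGAGCTCAGAA
Grik2 Q/R reverse: TGTCATAGCCAGGTTTAGTCC
Grik2 Y/C forward: ACCAAATGCCTCCCACTATC
Grik2 Y/C reverse: TCTCCCCTGATATCTGGATGT
Kcna1 forward: AATTGGACACAATGACAGGTAC
Kcna1 reverse: TCTTCATTGGCGTCATACTGT
Htr2c A to D forward: CTTAGTCCGCGAATTGAACC
Htr2c A to D reverse: GGGGATTATGTCTGGCCTTTA
The first Grik2 pair also covered the Met/Val and the synonymous Gly site, and the second also covered the I/V site. All 4 Htr2c coding sites were read from 1 amplicon. Sites of 1 amplicon share their reads and are not independent of each other.

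Reads summed over the 146 study sites ranged from 1758788 to 2993830 in PFC and from 1064013 to 2763132 in AMY, and the sites that passed the test had at least 1070 reads in every sample counted. The widest 95% Wilson interval at those sites was 2.71 points. Such intervals cover counting error only, since PCR reads without molecular identifiers are not independent molecules. By library number, 5 PFC samples and 1 AMY sample (145) fell in an earlier set of 48 consecutive numbers, and 2 PFC samples (130 and 131) and 6 AMY samples in a later one. Both later PFC samples were female, so set and sex cannot be told apart within the PFC. PFC sample 155 had under 50 reads at 35.6% of the sites, against at most 8.90% in any other sample. Its share of reads at the Mpeg1 amplicon, a macrophage and microglia transcript, was 0.00193%, and that at Igf2 was 2.58%, against at most 1.52% in the other 13. Without it 23 sites passed. The labels do not tell which PFC and AMY samples came from the same animal or litter, and p-values therefore measure the spread between samples taken as unpaired.

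A site was tested where at least 3 samples of each region had 50 reads or more. Of the 146 sites, 142 could be tested, and 25 of them (17.6%) differed between the regions at a false discovery rate of 0.1 (exact two-sided Mann-Whitney U test, Benjamini-Hochberg adjustment made separately over nonsynonymous and all other sites). Editing was lower in PFC at 24 sites (16.9% of those tested) and higher at 1, the 3′ UTR site of Igf1 (0.704%). The regions did not overlap at 6 sites (4.23%), namely Gabra3, Grik2 Y/C, Kcna1, Igf1, the first Mmgt1 site and 1 Usp29 site. Without regard to the test, the mean was lower in PFC at 103 of 142 sites (72.5%), with a median difference of -0.10 points. At the 25 sites the median size of the difference was 1.66 points, from 0.114 to 30.4, and 10 sites differed by at least 5 points.

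**Figure D1:**
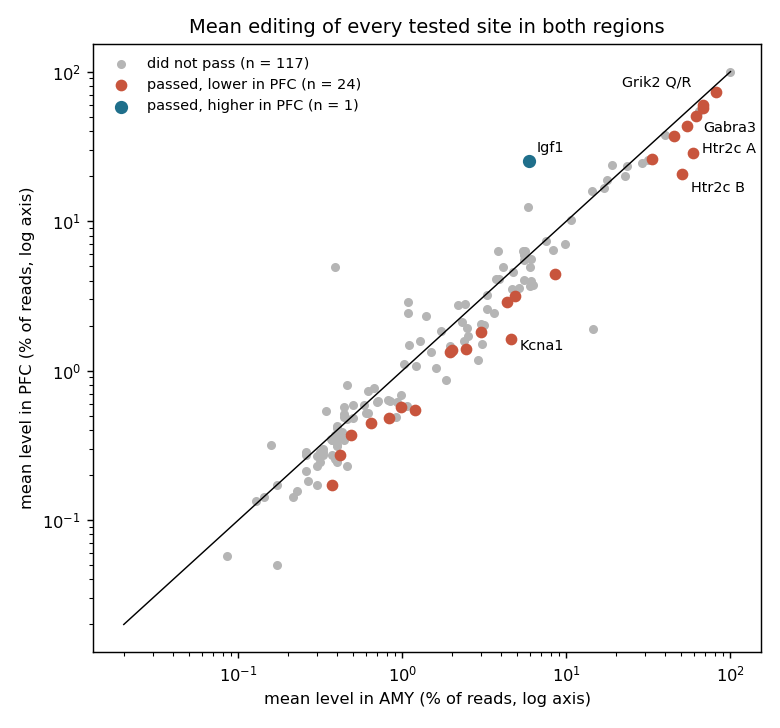
Mean editing level of the 142 tested sites in AMY (horizontal axis) and PFC (vertical axis), both in percent of reads on log axes, each mean over 4 to 7 samples. Points under the diagonal had lower levels in PFC, as did all 24 red sites, and Igf1 stands above it at 25.2% against 5.94%.

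By class, 12 of 40 tested nonsynonymous sites, 3 of 16 synonymous, 8 of 71 3′ UTR, 1 of 6 5′ UTR, 1 of 7 intergenic and none of 2 intronic sites passed. Of the 18 sites with a mean of at least 20% in either region, 10 passed, compared with 9 of 62 with means from 1% to 20% and 6 of 62 with under 1% in both. The passed sites lay in 18 transcripts or loci and were read with 20 primer pairs. Among transcript groups, 4 of 7 kainate receptor sites, 4 of 10 AMPA receptor sites, 4 of 7 sites of Htr2c and Gabra3, 2 of 7 ion channel and release sites and 3 of 19 sites in RNA-binding and editing factors passed, all lower in PFC. None of 10 sites in other recoded proteins passed. The share over all tested sites, 17.6%, is the background for these counts. Since the adjustment was separate, the counts do not rest on 1 cut-off. The nonsynonymous Son site passed at an unadjusted p of 0.0297, while a Usp29 3′ UTR site did not at 0.0146 (exact test). With 1 adjustment over all sites 25 passed, and Kcnma1 and Son were not among them.

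The kainate receptor subunit Grik2 (GluK2) forms ion channels gated by glutamate. Editing of its pore (Q/R) and of its first transmembrane segment (I/V and Y/C) is known to affect calcium permeability. Its 3 highly edited coding sites were all lower in PFC, by about 9 to 11 points. At Y/C (chromosome 20, position 53408958, tyrosine to cysteine) the lowest, median and highest levels were 55.3%, 60.3% and 63.4% in PFC and 63.8%, 69.7% and 71.6% in AMY. Every AMY sample was above every PFC sample, although the regions are separated by 0.4 points only. The means were 59.6% ± 3.07 and 68.1% ± 3.19 (SD, n = 7 each; shift -8.70 points, 95% interval -11.9 to -3.70; adjusted p = 0.00777, exact test).

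At the Q/R site (position 53378633, glutamine to arginine) levels ran from 66.0% to 76.9% in PFC, with a median of 72.5%, and from 76.7% to 84.4% in AMY, with a median of 82.4%. The lowest AMY sample lay just under the highest PFC sample, and the other 6 AMY samples were above all PFC samples. The shift was -7.90 points (95% interval -11.9 to -4.50; adjusted p = 0.0117, exact test). At I/V (position 53408971, isoleucine to valine) PFC ranged from 31.8% through a median of 45.2% to 49.8%, and AMY from 48.8% through 52.2% to 65.3%. The highest value was that of AMY 145 and the lowest that of PFC 131. The shift was -9.80 points (95% interval -19.1 to -2.60; adjusted p = 0.0186, exact test).

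The remaining Grik2 sites were edited at low levels. Met/Val (position 53378637), 4 bases from Q/R, had 1.37% ± 0.531 in PFC and 2.01% ± 0.449 in AMY (n = 7 each; adjusted p = 0.0414, exact test), with overlapping regions. The synonymous Gly site had 2.04% and 3.01% (adjusted p = 0.339, exact test), and the synonymous Glu site 0.586% in both regions. Grik1 (GluK1), whose Q/R site plays the same part in the pore, had 24.6% ± 8.45 (n = 6) in PFC and 28.8% ± 7.48 (n = 7) in AMY. Its levels did not separate the regions (95% interval of the shift -19.2 to 10.3 points, adjusted p = 0.326, exact test).

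Among the AMPA receptor subunits, the R/G sites before the ligand-binding flip/flop segment, which are known to speed recovery from desensitisation, were less edited in PFC in Gria2 and Gria4, while Gria3 R/G did not pass. At Gria2 R/G (chromosome 2, position 172272247) levels were 32.6%, 36.5% and 46.0% (lowest, median, highest) in PFC and 40.4%, 42.7% and 53.7% in AMY. Of the 7 PFC samples, 6 lay below every AMY sample, and PFC 150 lay inside the AMY range. The shift was -8.20 points (95% interval -15.9 to -2.50; adjusted p = 0.0443, exact test). At Gria4 R/G (chromosome 8, position 994881) the same values were 20.4%, 25.2% and 32.4% in PFC and 30.1%, 32.3% and 37.6% in AMY. Here PFC 131 was the sample that reached into the AMY range. The shift was -7.10 points (95% interval -11.5 to -2.40; adjusted p = 0.035, exact test).

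Levels at Gria3 R/G (chromosome X, position 3477800) were 54.8% ± 6.19 in PFC and 64.2% ± 6.12 in AMY (n = 7 each; 95% interval of the shift -18.5 to -0.20 points; adjusted p = 0.117, exact test). The synonymous sites 1 base away, Gria3 L and Gria2 L, passed at low levels, 0.571% against 0.986% for Gria3 L (adjusted p = 0.0238, exact test) and 0.443% against 0.643% for Gria2 L (adjusted p = 0.0476, exact test). Gria2 L passed in 1 of the 14 fits that each left out 1 sample. The Gria2 Q/R site in the pore, which blocks calcium entry, was close to complete in both regions, 99.5% ± 0.140 and 99.6% ± 0.125 (95% interval of the shift -0.30 to 0.00 points; adjusted p = 0.53, exact test). The synonymous Gria2 Q site, read from the same amplicon, had 18.7% and 17.7% (adjusted p = 0.592, exact test). Gria3 K, the synonymous Gria3 site at position 3477161 and Gria4 L were all under 0.6% in both regions with adjusted p of 0.967 to 1 (exact test).

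Gabra3 encodes the α3 subunit of the GABA-A receptor, and its I/M site (chromosome X, position 158405626, isoleucine to methionine) lies in the third transmembrane segment. It was one of the most clearly separated sites, with PFC at 48.8% to 53.5% (median 51.0%) and AMY at 57.6% to 65.1% (median 61.4%). A gap of about 4 points lay between the highest PFC and the lowest AMY sample, and the SD within a region was 1.87 and 2.79 points. The shift was -10.4 points (95% interval -13.6 to -7.60; adjusted p = 0.00777, exact test). At between 7353 and 39807 reads per sample, the counting error of a level was far below the SD between samples.

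Htr2c encodes the serotonin 2C receptor, in which editing of sites A to D changes 3 amino acids of the second intracellular loop and is known to weaken G-protein coupling. Sites A and B showed the widest region difference of all sites, about 30 points, and also a wide spread between animals. At A (chromosome X, position 31041849) the lowest, median and highest levels were 9.3%, 35.5% and 47.5% in PFC and 27.6%, 60.0% and 79.4% in AMY. At B (position 31041847) they were 7.8%, 19.3% and 39.4% in PFC and 22.4%, 49.9% and 71.9% in AMY. AMY 140 was the lowest AMY sample at both sites, and the other 6 AMY samples lay above every PFC sample. The shift was -31.2 points at A (95% interval -50.7 to -12.5; adjusted p = 0.035, exact test) and -32.4 points at B (95% interval -48.5 to -13.1; adjusted p = 0.0272, exact test). In males only, the mean differences were -28.6 points at Htr2c A and -26.9 points at Htr2c B and did not pass (adjusted p = 0.148 for both, exact test).

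Sites C and D in the same reads did not separate the regions. C had 20.1% ± 15.4 in PFC and 22.9% ± 7.59 in AMY (95% interval of the shift -17.9 to 17.3 points), and D had 37.4% ± 23.4 and 39.7% ± 9.01 (-28.6 to 22.5 points), with adjusted p of 0.72 and 0.861 (exact test). The PFC samples ranged from 8.1% to 68.0% at D. At this spread a difference of 20 points at D would lie within the interval, so these values do not show that the regions are alike. PFC 157, 150 and 130 were low at all 4 sites, as AMY 140 was among the AMY samples.

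Within a sample, the order of the sites differed between the regions in these F2 controls. Level A minus level D ranged from -26.7 to 4.4 points in PFC (mean -8.71 ± 11.1) and from 5.2 to 30.1 points in AMY (mean 19.1 ± 8.35), so that A exceeded D in 1 of 7 PFC and in 7 of 7 AMY samples. This difference was singled out after the values were seen and is given with no test. Among other newborns, A minus D was 3.41 ± 17.4 points in F2 PRS PFC and 27.2 ± 5.51 in F2 PRS AMY. It was 21.5 ± 27.6 and 35.3 ± 7.22 points in F1 control PFC and AMY. There A exceeded D in 5 of 7 F2 PRS and 4 of 5 F1 control PFC samples, and in all AMY samples. The order seen in F2 control PFC was thus not shared by most PFC samples of these groups. F1 PRS newborns were not examined. In adult controls A minus D was 30.2 ± 10.7 points in PFC and 38.9 ± 4.84 in AMY, where A exceeded D in all 5 samples of both regions.

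**Figure D2:**
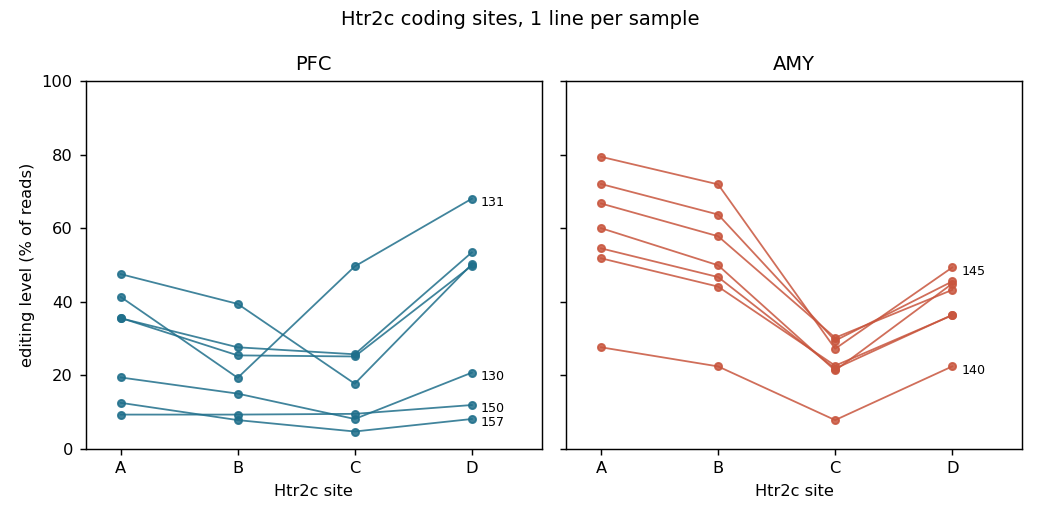
Editing levels (percent of reads, vertical axis) at Htr2c sites A, B, C and D in the 7 PFC and 7 AMY samples, 1 line per sample and with the sample number at some lines. D lies below A in 7 of 7 AMY samples and in 1 of 7 PFC samples, and D in PFC reached 68.0% in sample 131 and 8.1% in sample 157.

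Outside the coding amplicon, a site in the 3′ UTR of Htr2c (position 31014486) had 4.44% ± 2.52 in PFC and 8.54% ± 1.13 in AMY (n = 7 each; adjusted p = 0.0238, exact test). PFC 131 was at 0.1% and the other PFC samples at 2.6% to 7.0%. A further 3′ UTR site was at 0.486% and 0.443% (adjusted p = 0.824, exact test). The share of a sample's reads at Htr2c A was 0.470% to 1.15% in PFC and 0.688% to 0.980% in AMY, and such PCR shares are not expression levels.

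Of the ion channels, Kcna1 (Kv1.1), whose I/V site in the inner pore is known to speed recovery from inactivation, was edited at a few percent. Levels at this site (chromosome 4, position 163012291) were 0.3%, 1.7% and 2.8% in PFC and 2.9%, 4.7% and 5.8% in AMY (lowest, median, highest), so the regions touched without overlapping. The mean in AMY was 2.83 times that in PFC (shift -3.0 points, 95% interval -4.1 to -2.0; adjusted p = 0.00777, exact test). Kcnma1, the BK calcium-activated potassium channel, had 1.82% ± 0.691 (n = 6) in PFC and 3.00% ± 1.02 (n = 7) in AMY at its Ser-to-Gly site (chromosome 15, position 322937; adjusted p = 0.072, exact test). It passed in 5 of the 14 fits that each left out 1 sample, and AMY 140, at 1.0%, lay within the PFC range.

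The calcium channel Cacna1d (Cav1.3) went the other way in its means. Its Ile-to-Met site (chromosome 16, position 5405840), in the IQ motif that mediates calcium-dependent inactivation, had 23.7% ± 4.48 (n = 6) in PFC and 19.1% ± 2.20 (n = 7) in AMY. It did not pass (95% interval of the shift -0.60 to 9.40 points; adjusted p = 0.133, exact test), nor did its neighbours at 5405832, with 15.8% and 14.3%, and 5405838, with 2.77% and 2.41% (adjusted p of 0.536 and 0.729, exact test). In Cadps, a priming factor of dense-core vesicles, the synonymous site at chromosome 15, position 14273751, had 2.13% and 2.31% (adjusted p = 0.838, exact test), and the Glu-to-Gly site had 16.6% ± 2.79 and 16.8% ± 2.17 (95% interval of the shift -3.8 to 3.9 points; adjusted p = 1, exact test).

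Igf1, insulin-like growth factor 1, carried the only passed site with more editing in PFC. At this 3′ UTR position (chromosome 7, position 24605672) levels were 18.1%, 22.7% and 33.1% in PFC and 2.9%, 5.4% and 10.4% in AMY (lowest, median, highest). A gap of more than 7 points separated the regions, and the shift of 17.5 points (95% interval 12.7 to 27.1; adjusted p = 0.0198, exact test) was larger than at any site but Htr2c A and B. Within the later set of library numbers the means were 23.6% and 6.03%, and within the earlier one 25.8% and 5.40%. Igf1 took 0.327% to 0.606% of the reads in PFC and 0.278% to 0.907% in AMY. Igf2, known from meninges and choroid plexus, was edited at 3.21% ± 1.13 and 3.27% ± 0.723 (95% interval of the shift -1.2 to 1.5 points; adjusted p = 0.874, exact test).

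**Figure D3:**
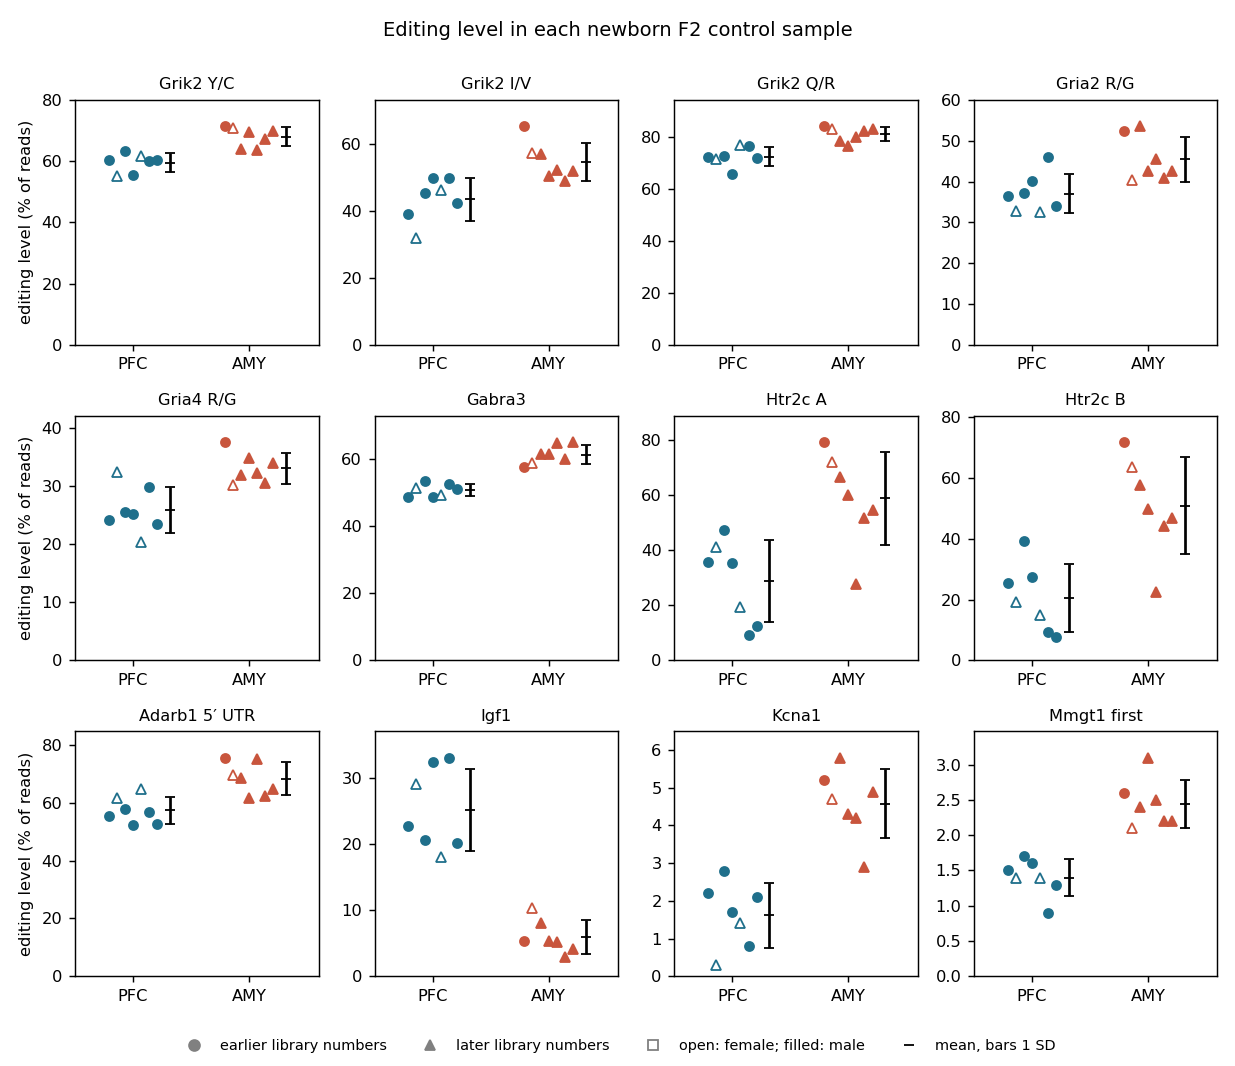
Editing level (percent of reads, linear axes from 0) in each sample at 12 sites, with circles for earlier and triangles for later library numbers, open symbols for females, and the mean ± 1 SD beside the points. The left-to-right order of points within a region has no meaning. The regions do not overlap at Grik2 Y/C, Gabra3, Kcna1, Igf1 and the first Mmgt1 site, and at the other 7 panels they do.

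Adarb1 encodes the editing enzyme ADAR2, which edits its own transcript. The site at chromosome 20, position 11709486, annotated as 5′ UTR, had 57.4% ± 4.61 in PFC and 68.2% ± 5.70 in AMY, with ranges of 52.2% to 64.7% and 61.6% to 75.6%. The 2 highest PFC samples, at 61.8% and 64.7%, reached into the range of the 3 lowest AMY samples, at 61.6%, 62.4% and 64.7% (shift -10.7 points, 95% interval -17.6 to -4.40; adjusted p = 0.0476, exact test). Within the later set the difference was -3.77 points and within the earlier, where AMY 145 was the only AMY sample, -20.6 points, and with labels permuted within the sets the site did not pass. The neighbouring Adarb1 positions 11709472, 11709485 and 11709490 had differences of -5.83, -0.486 and -1.56 points and did not pass (adjusted p of 0.239, 0.982 and 0.167, exact test).

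Lower-level sites made up most of the remainder. In the 3′ UTR of Mmgt1, a magnesium transporter, the adjacent sites at chromosome X, positions 141126031 and 141126032, had 1.40% ± 0.258 against 2.44% ± 0.341 and 0.543% ± 0.237 against 1.20% ± 0.404 (PFC against AMY, adjusted p of 0.0198 and 0.0297, exact test). The 3′ UTR of Pum2, an RNA-binding translational repressor, had 3.17% ± 0.642 against 4.83% ± 0.585 (adjusted p = 0.034, exact test). One of 20 sites in the 3′ UTR of Ankrd28 passed (chromosome 16, position 7169220, 2.87% against 4.33%, adjusted p = 0.0476, exact test). It did not pass with the set as a term, with labels permuted within the sets or in males only, and passed in 11 of the 14 fits that each left out 1 sample. The other 19 had differences from -1.08 to 1.78 points, 11 below and 8 above 0, and no adjusted p under 0.643 (exact test). An intergenic site on chromosome 7 (position 138469220) had 1.33% against 1.96% (adjusted p = 0.0594, exact test). It did not pass with labels permuted within the sets or in males only, and passed in 8 of 14 such fits.

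Among the passed sites under 1% in both regions, beside Gria2 L and Gria3 L, were Usp29 (chromosome 1, position 65273680, 0.271% against 0.414%), the synonymous site of the histone gene Hist2h2ab (chromosome 2, position 191023314, 0.171% against 0.371%) and an Arg-to-Gly site of the splicing cofactor Son (chromosome 11, position 31628548, 0.48% against 0.83%). Their adjusted p were 0.0198, 0.0941 and 0.0991 (exact test). The deposited levels are rounded to 0.1 points, and with unrounded levels Hist2h2ab, Gria2 L and Son did not pass. With 1 sample left out, Hist2h2ab passed in 5 and Son in 3 of 14 fits. The other 7 Son sites had differences of -0.229 to 0.16 points, and the other 2 Usp29 sites -1.70 and -0.129 points, none of them passing.

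The sites of Flna, Blcap and Mpeg1 did not pass. Flna, an actin crosslinker with a Gln-to-Arg site, had 5.46% ± 3.07 against 5.49% ± 1.37, with a 95% interval of the shift from -2.70 to 2.20 points (adjusted p = 0.861, exact test). The PFC mean of Flna rests in part on sample 160, at 11.6%. The 3 Blcap sites did not pass either (adjusted p of 0.359 to 0.894, exact test), and the Lys-to-Arg site (chromosome 3, position 148267329) stood at 92.4% in AMY 145 and at 0.3% to 6.7% in all other samples. Its mean difference was -12.5 points with AMY 145 and 0.483 points without it. The macrophage transcript Mpeg1 had 3.68% ± 1.78 (n = 6) and 5.96% ± 0.619 (n = 7) at its 3′ UTR site (adjusted p = 0.103, exact test).

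Mean editing, taken over the 85 sites that had 50 reads in every sample, was 9.59% ± 0.846 in PFC and 11.5% ± 1.34 in AMY, a difference of -1.90 points (n = 7 each; exact two-sided permutation p = 0.00408). PFC ranged from 8.18% to 10.48% and AMY from 9.95% to 14.0%, so the regions overlapped. Without PFC 155, which limited the sites that could be averaged, 120 sites gave -1.40 points (exact p = 0.0122). Without AMY 145 the difference was -1.49 points, and without AMY 140 it was -2.16 points. In such a mean, sites with large differences, such as Htr2c A and B, weigh most. Among the 85 sites is Blcap 148267329, whose difference of -12.5 points rests on 1 value, 92.4% in AMY 145. The mean without that site was not computed.

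All 25 sites kept their direction within the later set, where 2 PFC samples met 6 AMY samples, and within the earlier set, where 5 PFC samples met AMY 145. At 16 of the 24 lower sites both later PFC samples lay below all later AMY samples, and at 22 of 24 AMY 145 lay above every earlier PFC sample. Over all sites, the mean was lower in PFC at 80 of 134 in the later and at 83 of 142 in the earlier set. With labels permuted within the sets 21 sites passed by distance from the permutation mean and 11 when the smaller tail was doubled. The latter left Gabra3, Grik2 Y/C, I/V, Q/R and Met/Val, Kcna1, Htr2c A and B and Gria2 R/G, but not Igf1 (adjusted p = 0.135, exact test). The other 2 of the 11 were Gria3 R/G and Grik1 (adjusted p of 0.0595 and 0.0635, exact test), which had not passed without the sets. The smallest p that the doubled tail can give is 0.0119, adjusted over 102 sites where a site is not nonsynonymous. Igf1 was at that smallest p, since its regions did not overlap within either set. No arrangement of its samples could have given a lower p, so its not passing does not show a weaker difference. The same held at other sites that failed there, among them Gria3 L, Pum2, both Mmgt1 sites and Usp29 65273680.

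The same region difference was then read in 3 further pairs of groups, each tested against the F2 controls with an interaction term (limma on log2 odds of editing, adjusted over all sites). These pairs share the F2 controls and are not compared with each other. Newborn F1 controls (5 PFC, 5 AMY) were direct offspring of unstressed females, and F2 PRS newborns (7 PFC, 6 AMY) descended from females stressed in adolescence, before reproduction. By label, 5 of 7 PFC and 5 of 6 AMY samples of F2 PRS newborns were female, whereas F2 controls were mostly male. Treatment and sex cannot be told apart there. In F1 controls 5 PFC and 4 AMY samples had library numbers outside both F2 sets, so generation and library number cannot be told apart either. Adult controls (5 PFC, 5 AMY, P60) were unstressed and all female.

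No site passed the interaction test against F1 controls (0 of 142, 0%, with 2 at an unadjusted p under 0.05, limma) or F2 PRS newborns (0 of 142, 0%, with 9). With these few samples, that does not show the region differences to be the same. In F1 controls all 24 lower sites and Igf1 had the same direction, with medians of -2.13 points for the 24 against -1.56 in F2 controls, and 105 of all 142 sites were lower in PFC. In F2 PRS newborns 22 of the 24 had the same direction, with a median of -1.01 points, against 87 of all 142 sites. The exceptions were Gria3 L and Hist2h2ab. Gabra3 had 48.7% ± 5.77 and 60.3% ± 7.17 in F1 controls and 49.3% ± 2.89 and 56.7% ± 4.46 in F2 PRS newborns. Grik2 Y/C had 62.2% ± 6.28 and 69.3% ± 5.77, and 61.7% ± 4.73 and 70.5% ± 2.69. Igf1 had 25.6% ± 12.9 and 11.5% ± 3.42 in F1 controls, and 26.0% ± 7.59 and 13.8% ± 4.36 in F2 PRS newborns, so its AMY levels were above those of F2 controls (interaction of 1.18 ± 0.547 SE and 1.35 ± 0.430 log2 odds, adjusted p of 0.916 and 0.499, limma).

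Against adult controls the region difference differed at 6 of 140 sites (4.29%), and at 22 when percent was modelled in place of log odds. Of the 24 lower sites, 18 had the same direction in adults, with a median of -1.10 points, against 94 of all 140 sites. Igf1 stood out, since adult PFC had 8.16% ± 5.87 and adult AMY 14.0% ± 1.89, a difference of -5.88 points in place of 19.3 (interaction of 3.58 ± 0.529 log2 odds, adjusted p = 0.000114, limma). Adult PFC ranged from 2.4% to 18.1% and adult AMY from 12.6% to 17.2%. Grik2 Q/R had 90.4% ± 1.40 in adult PFC and 86.0% ± 1.88 in adult AMY, 4.40 points higher in PFC where newborns were 8.64 points lower (interaction of -1.33 ± 0.247 log2 odds, adjusted p = 0.00145, limma). Grik2 Y/C had 89.6% ± 4.78 and 85.9% ± 1.78 (interaction of -1.14 ± 0.312 log2 odds, adjusted p = 0.0458, limma).

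The other 3 sites had not passed between the newborn regions. Cacna1d at 5405840 had 29.2% ± 0.869 in adult PFC and 36.9% ± 2.86 in adult AMY, -7.68 points against 4.66 in newborns. The Ovca2 3′ UTR site (chromosome 10, position 62483577) had 0.46% and 2.10%, against 0.567% and 0.443% in newborns. Gria4 L had 0.30% and 1.15%, against 0.143% in both newborn regions (adjusted p = 0.0458 for each of the 3, limma). With the library-number set as a term Cacna1d and Ovca2 no longer passed (adjusted p of 0.13 and 0.177, limma), while Kcna1, at 16.9% ± 2.85 in adult PFC and 18.8% ± 4.26 in adult AMY, passed (interaction of -2.25 log2 odds, adjusted p = 0.0563, limma, against 0.144 without the set). Age goes with sex and, for 8 of 10 adult samples, with library numbers outside both newborn sets, and these cannot be told apart. Gabra3 kept the newborn direction in adults, with 86.6% ± 2.01 and 89.9% ± 2.46. The interaction did not pass on log2 odds (adjusted p = 0.795, limma) but did in percent, at -7.27 points (adjusted p = 0.0195, limma).

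**Figure D4:**
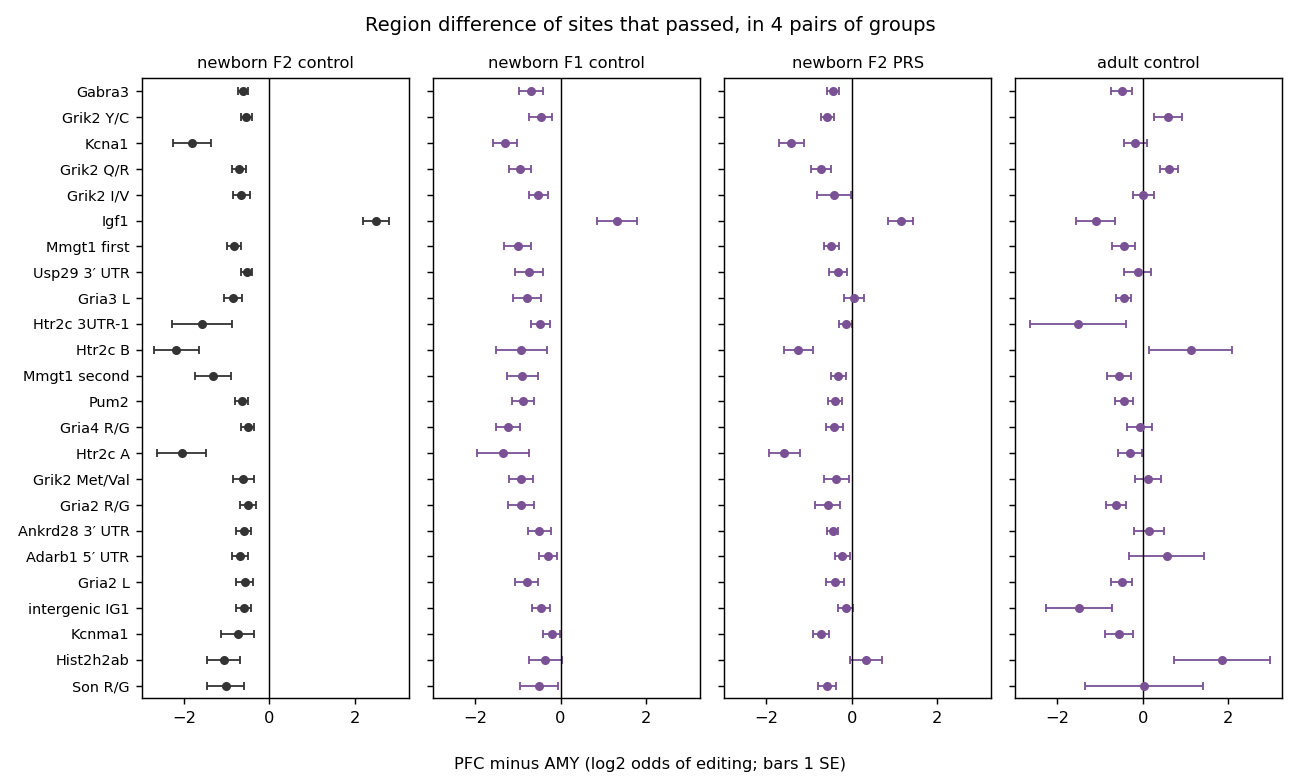
Difference between PFC and AMY (log2 odds of editing, horizontal axis, bars of 1 SE, limma) at 24 of the 25 sites that passed in newborn F2 controls, in these and in 3 other pairs of groups. Points left of 0 were lower in PFC. Igf1 lies right of 0 in all 3 newborn pairs and left of 0 in adults, and Grik2 Q/R and Y/C lie left of 0 in newborns and right of 0 in adults.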

How the data were processed

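Editing was measured by mmPCR-seq in 85 samples, of which 47 were used here (14 F2 control newborns and 33 of the comparison groups). Per the study's methods, the authors mapped reads with BWA to rn4 and deposited, per sample, counts of reads and of edited reads at 179 listed positions and the editing level as a fraction rounded to 3 decimals. The version of BWA is not given in the sources used here. The 146 sites of the study were analysed. Levels from fewer than 50 reads were left out, a minimum that the deposited files do not apply, so depth is at least 50 reads per value.

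Groups came from the labels. Each site was tested with an exact two-sided Mann-Whitney U test over all 3432 splits (smallest p 0.000583), with Benjamini-Hochberg adjustment separately over nonsynonymous and all other sites and an FDR of 0.1. Shifts are Hodges-Lehmann estimates with exact 95% intervals. Log2 odds were computed from edited and unedited reads plus 0.5 each and fitted with limma 3.58.1 in R 4.3.3. The other steps ran in Python 3.11.15 (scipy 1.17.1, numpy 2.4.6, pandas 2.3.3, with matplotlib 3.10.9 for plots).

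Named were the sites that passed, all receptor sites, the other sites of their transcripts and all sites that passed an interaction. Cadps, Flna, Igf2 and Blcap were added from the gene lists, and Mpeg1 as a cell type marker. Some items that this rule covers are not reported here. The samples, lists and tests were chosen with earlier results of these data known. Which samples and values of these added sites are described was decided after their values were seen. The steps were tested on simulated reads for the region comparison (142 sites, 30 changed by 1 log2 odds unit, 20 simulations), where 53.8% of the changed sites were called and 5.56% of calls were false. The changed sites all had mean levels over 1%, sites were drawn independently of each other and levels were not rounded. These shares therefore do not cover changed sites of lower level, rounding or sites that share an amplicon.

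The alternatives were other tests, set or sex as a term, labels permuted within library-number sets, males only, other read minimums, adjustments and site sets, unrounded levels and each sample left out. Unrounded levels, the later set alone and the doubled tail were added after seeing the data.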

Additional observations from a re-analysis of the deposited data

Results flagged for a closer look

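The region difference of newborn F2 controls differed from that of adult controls at 6 sites (limma interaction on log2 odds, PFC minus AMY in newborns less the same in adults). The values were 3.58 at Igf1, -1.33 at Grik2 Q/R, -1.14 at Grik2 Y/C, 0.89 at Cacna1d 5405840, 2.07 at Ovca2 62483577 and 2.36 at Gria4 L.

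A sample lay apart from the others of its region, by Dixon's criterion, in 13 of the 102 groups of values examined, where chance gives about 1 in 20. Of these 13, 5 were at Blcap. The Lys-to-Arg site of Blcap (chromosome 3, position 148267329) was 92.4% in AMY 145 with 17480 reads, against 0.3% to 6.7% in the other 13 samples, and 6.7% in PFC 131. In AMY 145 the Blcap sites at 148267359 and 148267368 had 1317 and 668 reads, with levels of 7.1% and 9.3%, of which the first was apart from the other AMY samples. In PFC 131 these sites were at 12.1% and 36.7%, both apart from the other PFC samples.

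Htr2c C was 7.8% in AMY 140, against 21.3% to 30.2% in the other 6 AMY samples, and Flna was 11.6% in PFC 160, against 2.2% to 6.2% in the other 6 PFC samples. The synonymous Cadps site 14273751 was 0.0% in PFC 155, against 1.9% to 3.3%. The remaining 5 were small steps at sites of low level. Gria2 L was 0.8% in PFC 160 (others 0.3% to 0.4%), Gria3 K 0.6% in AMY 140 (0.3% to 0.4%), Gria4 L 0.4% in AMY 121 (0.1%), the intergenic site 138469220 1.5% in AMY 141 (1.9% to 2.2%) and Usp29 65273680 0.5% in AMY 140 (0.4%).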

How the results depend on the processing

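The count of 25 sites stayed within 1.5 times its value under the alternatives chosen at the start, except in males only, where 14 passed (5 against 6 samples). The fit over all F2 newborns with the set as a term gave 34 and the fit of the 14 samples with that term 18. The doubled tail within library-number sets, added after the data were seen, gave 11. Leaving out 1 sample gave 17 to 26 sites, with 17 each without PFC 157, AMY 121 or AMY 136. Gabra3, Grik2 Q/R, Grik2 Y/C and Kcna1 passed in all 31 settings. Igf1, Gria4 R/G, Gria3 L, the first Mmgt1 site and Pum2 passed in all but the doubled tail. In that setting Igf1, Gria3 L, the first Mmgt1 site and Pum2 were at the smallest possible p, and Gria4 R/G was not. Gria2 R/G, Grik2 I/V, Htr2c A and Htr2c B passed in all but males only, where their differences were -7.53, -8.99, -28.6 and -26.9 points. Apart from the smaller number of samples, the cause was not tested. The 6 interactions with adults were 22 on the percent scale and 6 with the set as a term, where Cacna1d 5405840 and Ovca2 62483577 were no longer among them and Kcna1 and Nova1 66199286 entered (adjusted p = 0.0563 for both, limma). The difference in mean editing kept its sign and an exact p under 0.05 in every alternative, from -2.16 to -1.40 points (-0.408 on the log2 odds scale).

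No passed site changed sign. Of the sites that had not passed, several did. With 1 sample left out, the differences in points ran from -1.46 to 0.402 at Adarb1 11709485, from -14.9 to 0.483 at Blcap 148267329, from -0.948 to 1.00 at Blcap 148267359, from -0.555 to 0.169 at Cadps 14273751, from -0.943 to 0.379 at Cadps 14280228, from -1.05 to 0.514 at Flna, from -0.0119 to 0.0429 at Gria3 3477161, from -0.0405 to 0.00952 at Gria3 K, from -7.36 to 2.62 at Htr2c D and from -0.321 to 0.129 at Igf2. In males only, they were 0.743 at Adarb1 11709485, -1.26 at Blcap 148267359, 0.32 at Cadps 14280228 and -0.0133 at Htr2c 3UTR-2. Without PFC 155 they were 0.169 at Cadps 14273751, 0.34 at Cadps 14280228, -0.00714 at Gria3 3477161 and 0.0119 at Igf2, and with no read minimum -0.0429 at Cacna1d 5405838. In log2 odds, Blcap 148267359 was -0.371 with region alone, -0.504 with sex and -0.427 over all F2 newborns. Cacna1d 5405838 was -0.0918 and -0.0189, Cadps 14273751 0.377 and 0.179 and Gria2 Q -0.144 and -0.135 with the set as a term in the 14 and in all F2 newborns, and Htr2c 3UTR-2 -0.0239 with sex. No paired analysis was possible because the labels share no replicate number between the regions.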

Other observations

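A level chosen after the values were seen was that of Cdh22, at 18.7% in PFC 155 from 107 reads, against 0.0% to 1.2% in 10 others. Of the 33 listed positions outside the study, those at 31041835 and 31041841 in Htr2c were read in all 14 samples, and their level was 0.0% throughout.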
